A study of Mus musculus with 4 samples.

Results

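Collagen genes were followed in RNA of fetal oocytes whose mothers had eaten either normal chow (ND) or a high-fat diet (HFD). Members were the protein-coding genes whose GENCODE M21 symbol on GRCm38 begins with Col, a number, the letter a and a number. This gave 45 of the 21897 protein-coding genes among 55401 gene identifiers in the count files. The symbol Col4a3bp also fits the pattern but names a ceramide transfer protein, so that 44 collagen genes remained, divided into 11 fibrillar, 6 basement membrane (collagen IV) and 27 other genes. ICR females were kept on either diet for 4 months and mated with ND males. Female germ cells were sorted from fetal ovaries at E18.5 for the surface antigen SSEA-1, and the labels call them primordial germ cells. Each library came from oocytes pooled over several fetuses and amplified with SMART-Seq2, a method for very small amounts of RNA. There were 2 ND and 2 HFD libraries, all from unmodified mice of the same stage. The labels tie no library to a single litter or fetus, so that p-values measure only the spread between these 4 samples.

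Collagens are secreted proteins in which 3 chains wind around each other as a triple helix. Fibrillar collagens form the fibres of connective tissue, and their main producers are fibroblast-like stromal cells. Collagen IV forms the sheet-like network of basement membranes and is made by epithelial, endothelial and other cells that rest on such a sheet. In the fetal ovary, oocytes lie in nests that are surrounded by pregranulosa cells and set apart from stroma and vessels by a basement membrane, so that collagen RNA is a usual marker of the somatic compartment.

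The total count was 8223255 for ND replicate 1, 7815015 for ND replicate 2, 6456825 for HFD replicate 1 and 5723605 for HFD replicate 2. Levels are given as CPM, the count divided by the library total and multiplied by 1000000, and a floor of 3 counts was 0.365 to 0.524 CPM. Such floors, and the intervals given for sums, cover counting error only. Reads per kilobase of exon served to compare genes of unequal length. Background was read from 1135 olfactory receptor genes, which should be silent in the ovary. Even so, 96.0% and 80.2% of them had reads in ND replicates 1 and 2, and 88.4% and 86.4% in HFD replicates 1 and 2. A collagen was above background in a library when it had more than 3 counts and exceeded the 99th percentile of those genes, at 7.44 to 12.5 reads per kilobase. Germ cell markers were present, with 11 to 14 of 16 above background and a summed level of 3517 to 5658 CPM. Different genes carried that sum in different libraries. Of the 16, 6 and 3 reached 50 CPM in ND, and 11 and 5 in HFD. Dazl was at 1733 and 3770 CPM in ND and at 453 and 8.56 CPM in HFD. Sycp1 was at 4.38 and 6.14 CPM in ND and at 1400 and 1394 CPM in HFD. Syce1 was at 1052 and 807 CPM in ND and at 607 and 4.37 CPM in HFD. Sycp2 was at 5.59 and 7.04 CPM in ND and at 3.72 and 1987 CPM in HFD. Ddx4, an RNA helicase that defines germ cells, was at 0.774 to 12.4 CPM. Of the 16 germ cell markers, edgeR gave an unadjusted p under 0.05 to 3 with a higher level in HFD (Sycp1, Figla and Taf7l) and to 1 with a lower level (Ddx4), where 11.2% of the 19335 genes tested had such a p, and 0 were called. Figla, Taf7l and Ddx4 were chosen after their values were seen.

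Collagen RNA was unevenly spread over the libraries, and its sum was lowest in ND replicate 2. The 44 genes summed to 2500.1 CPM (95% exact binomial interval 2466 to 2534) in ND replicate 1 and to 291 CPM (279 to 303) in ND replicate 2. They reached 3980.3 CPM (3932 to 4029) in HFD replicate 1 and 9343 CPM (9264 to 9422) in HFD replicate 2. Both HFD libraries were thus above both ND libraries in the sum, at a mean of 1396 ± 1562 CPM in ND and 6662 ± 3792 CPM in HFD (SD, n = 2 each). The log2 ratio of the means moved from 2.26 to 4.52 without ND replicate 1 and to 1.41 without ND replicate 2. In these bulk samples, a smaller share of collagen-producing cells and less RNA per cell cannot be told apart.

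**Figure D1:**
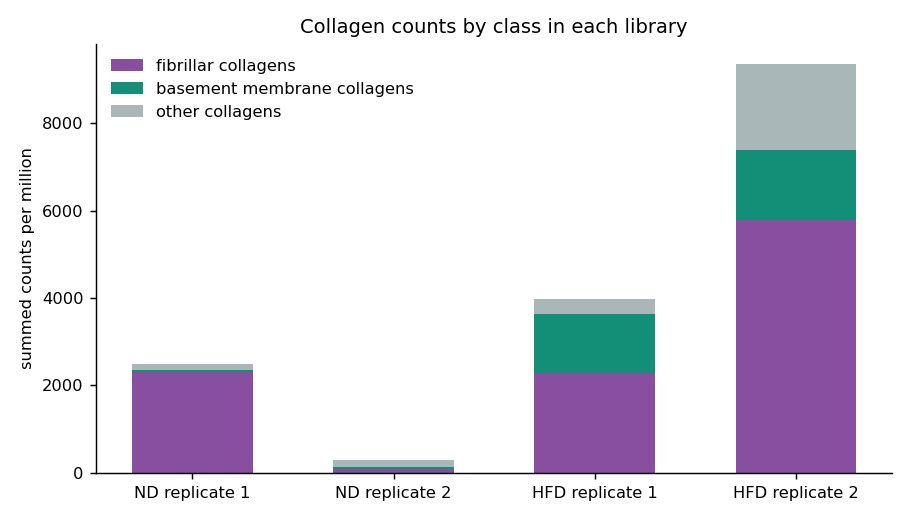
Summed CPM of the fibrillar, basement membrane and other collagens (stacked bars, linear axis) in each of the 4 libraries. The bars reach 2500.1 and 291 in ND and 3980.3 and 9343 in HFD, and collagen IV forms a visible block only in the HFD bars.

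Fibrillar collagens made up 92.3% of collagen counts in ND replicate 1, 33.9% in ND replicate 2, 57.6% in HFD replicate 1 and 62.0% in HFD replicate 2. Their sum was 2307 CPM (2274 to 2340) and 98.7 CPM (91.8 to 106) in the ND libraries. In the HFD libraries it was 2292 CPM (2255 to 2329) and 5794 CPM (5732 to 5857). On library totals, ND replicate 1 and HFD replicate 1 therefore carried about the same fibrillar level, with intervals that overlap, although their diets differ. The TMM factors by which edgeR scales these totals were 1.02 and 0.692, and on totals so scaled HFD replicate 1 was the higher. Collagen IV summed to 35.1 CPM in ND replicate 1, 34.8 CPM in ND replicate 2, 1342 CPM in HFD replicate 1 and 1592 CPM in HFD replicate 2. The mean was 35 ± 0.240 CPM in ND against 1467 ± 177 CPM in HFD (SD, n = 2 each), and this difference rested on a single gene. The other collagens summed to 158 CPM in both ND libraries, 347 CPM in HFD replicate 1 and 1956 CPM in HFD replicate 2. Their log2 ratio of HFD over ND means was 2.87, and 1.14 without HFD replicate 2. No p-value is given for these sums.

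Few collagens carried these sums. A level of at least 50 CPM in at least 1 library was reached by 10 of the 44 genes (22.7%), against 15.3% of all 21897 protein-coding genes. Of the 10 genes, 7 reached it in exactly 1 library, 2 in 2 libraries, 1 in 3 libraries and 0 in all 4. Exactly 1 library was thus the case for 70.0% of such collagens, close to the 70.8% among all protein-coding genes that reached this level. The other 34 collagens held 8.69% of collagen counts in ND replicate 1, 61.9% in ND replicate 2, 3.63% in HFD replicate 1 and 3.36% in HFD replicate 2.

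**Figure D2:**
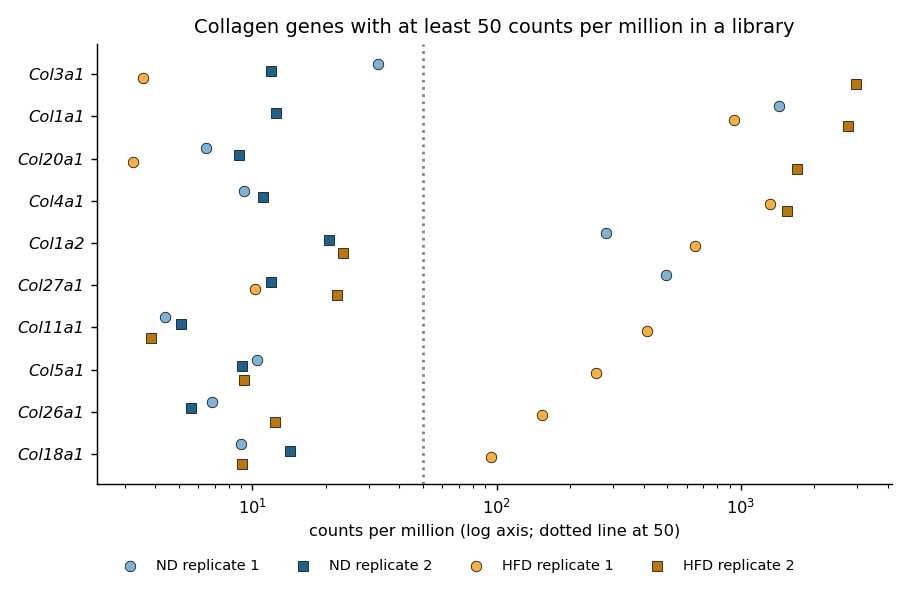
CPM (log axis) of the 10 collagen genes with at least 50 CPM in a library, 1 point per library, with the dotted line at 50. Points gather on the left between 3.25 and 32.6 and on the right between 94.6 and 2968, with a gap around the line. Col4a1 is the gene whose HFD points both lie on the right and whose ND points both lie on the left.

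Among fibrillar genes, Col1a1 encodes the chain that predominates in collagen I, the main fibre protein of skin, bone and tendon. Col1a1, on chromosome 11 from 94936224 to 94953042 of GRCm38, was at 1432 and 12.5 CPM in ND replicates 1 and 2 and at 939 and 2741 CPM in the HFD libraries. It was high in 3 libraries and low in ND replicate 2, and the diets overlapped. Its partner chain Col1a2, on chromosome 6 from 4504814 to 4541544, was at 279 and 20.6 CPM in ND and at 650.0 and 23.4 CPM in HFD. Col1a2 was thus high in replicate 1 of either diet and low in replicate 2 of either diet. Col3a1, whose protein forms thin fibres beside collagen I in soft tissues, lies on chromosome 1 from 45311538 to 45349706. It was at 32.6 and 11.9 CPM in ND, 3.56 CPM in HFD replicate 1 and 2968 CPM in HFD replicate 2. The last library held the gene's only level over 50 CPM.

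Other fibrillar genes stood out in a single library each. Col27a1, a fibrillar collagen of cartilage, was at 493 CPM in ND replicate 1 and between 10.2 and 22.2 CPM in the other 3 libraries. Col11a1, a minor component of cartilage fibrils, was at 412 CPM in HFD replicate 1 and between 3.84 and 5.12 CPM elsewhere. Col5a1, whose chain takes part in starting fibril assembly, was at 256 CPM in HFD replicate 1 and between 9.09 and 10.5 CPM elsewhere. Col5a2, the partner of Col5a1 in collagen V, was at 33.9 CPM in ND replicate 1, 6.27 in ND replicate 2, and 3.10 and 4.54 CPM in the HFD libraries. Of these collagen V chains, each was thus highest in a library in which the other was not raised. Col5a2 is also the neighbour of Col3a1 on chromosome 1, from 45374321 to 45503282, with 24614 bases between them on opposite strands. In ND replicate 1 they were at 33.9 and 32.6 CPM, whereas in HFD replicate 2 Col5a2 was at 4.54 and Col3a1 at 2968 CPM. The remaining fibrillar genes Col2a1, Col5a3, Col11a2 and Col24a1 stayed between 2.05 and 10.1 CPM in all 4 libraries.

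The basement membrane class was carried by Col4a1, which encodes a chain of the collagen IV form found in most basement membranes. Col4a1 lies on the minus strand of chromosome 8 from 11198423 to 11312826. Its counts were 76 in ND replicate 1, 86 in ND replicate 2, 8481 in HFD replicate 1 and 8840 in HFD replicate 2. These are 9.24 and 11 CPM in ND and 1313 and 1544 CPM in HFD, and the diets did not overlap. Of all collagen IV counts, Col4a1 took 26.3% and 31.6% under ND but 97.9% and 97.0% under HFD. Col4a2, whose chain joins that of Col4a1 in the same triple helix, lies head to head with it from 11312805 to 11449287 on the plus strand. It had 52, 43, 27 and 78 counts, or 6.32, 5.50, 4.18 and 13.6 CPM, in the same order of libraries. None of these 4 values exceeded background, so that high counts in HFD were seen for a single chain of the pair. The annotated first exons of the 2 genes overlap by 22 bases, which are shown to mark how closely the genes are joined (chr8:11312805-11312826, GRCm38.p6, RefSeq, plus strand, capitals for the shared bases).

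Col4a1 and Col4a2 overlap: AGTGCGCGGGCGGCGTCTCCAA

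The chains found in specialised basement membranes, such as those of the kidney filter, were Col4a3, Col4a4, Col4a5 and Col4a6. They lay between 3.10 and 10.7 CPM in all libraries. Col4a6 exceeded background in HFD replicate 1, at 10.7 CPM, and none of the other 15 values did. Col4a3 and Col4a4 are a second head to head pair, with annotated starts 72 bases apart, and their ratio per kilobase stayed between 0.768 and 1.10 over the 4 libraries.

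Ratios between chains of the same collagen type were calculated per kilobase within each library, where depth cancels. Col1a1 over Col1a2 was 9.72 and 1.15 under ND and 2.73 and 222 under HFD. In ND replicate 2 the ratio came from 14.9 and 13 reads per kilobase, both just above the limit of background there. In HFD replicate 2 it came from 2391 reads per kilobase for Col1a1 and 10.8 for Col1a2, the latter under background. Col4a1 over Col4a2 was 1.3 and 1.77 under ND and 279 and 101 under HFD. Col5a1 over Col5a2 ranged from 0.348 in ND replicate 1 to 93.4 in HFD replicate 1, and Col11a1 over Col11a2 from 0.273 in ND replicate 2 to 49.5 in HFD replicate 1. The chains of beaded collagen VI, which links cells to the surrounding matrix, were closer to each other. Col6a1 over Col6a2 was between 0.500 and 2.30, and Col6a3 over Col6a1 between 0.467 and 2.07, with all 3 genes between 2.32 and 19.4 CPM. Col6a1 exceeded background in 3 libraries, and Col6a2 and Col6a3 in 1 library each. Most of these ratios thus include a value at background, so that they cannot show whether the chains vary together.

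**Figure D3:**
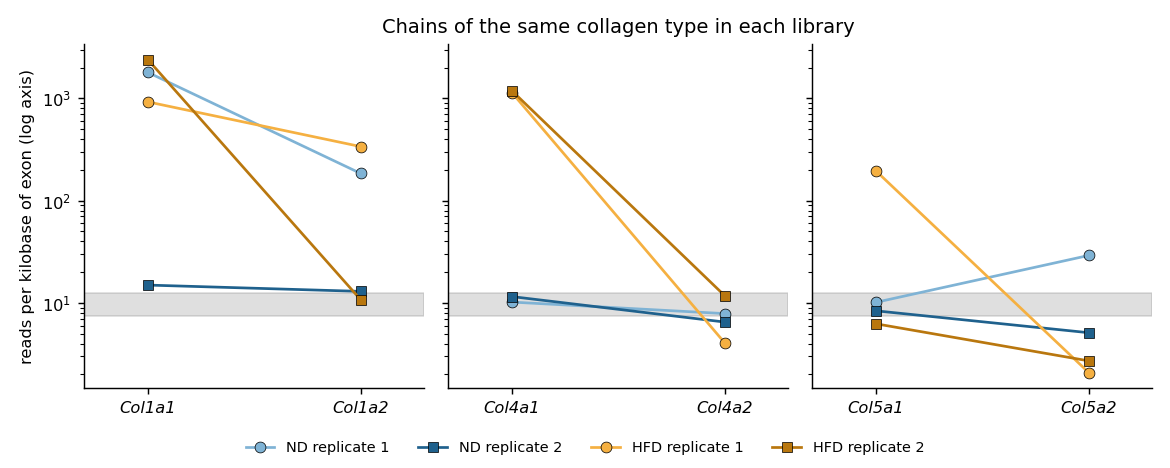
Reads per kilobase of exon (log axis) for the paired chains of collagens I, IV and V, joined by a line within each library. The grey band spans the background limits of the 4 libraries, 7.44 to 12.5. Col1a1 and Col1a2 are both raised in ND replicate 1 and HFD replicate 1, while Col4a1 in the HFD libraries and Col5a1 in HFD replicate 1 are raised without their partners.

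Among the other collagens, Col20a1 led. It encodes a collagen of the FACIT group, whose members attach to fibrils without forming them. Col20a1, on chromosome 2 from 180986535 to 181018363, was at 6.45 and 8.83 CPM in ND, 3.25 CPM in HFD replicate 1 and 1695 CPM in HFD replicate 2. It held 86.6% of the counts of the other collagens in that library. On the CPM scale per kilobase (RPKM), the highest collagen levels of HFD replicate 2 were 418 for Col1a1, 330 for Col20a1, 302 for Col3a1 and 207 for Col4a1. Col26a1, described from the testis and ovary, was at 6.81 and 5.63 CPM in ND and at 154 and 12.4 CPM in HFD. Col18a1, a basement membrane proteoglycan core from which endostatin is cut, was at 9.0 and 14.2 CPM in ND, 94.6 CPM in HFD replicate 1 and 9.09 CPM in HFD replicate 2. Both genes owed their HFD level to replicate 1. The other 24 genes of the class stayed under 50 CPM in all libraries, with Col16a1, a FACIT collagen, the highest of them at 36.3 CPM in HFD replicate 2.

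Upstream sequence was looked at for the collagens with a RefSeq promoter entry, which were 35 of the 44. In the 250 bases before the annotated start, on either strand, CCAAT was found for 37.1% of these 35 genes and 37.5% of 27025 genes in the whole table. GGGCGG was found for 60.0% and 35.4%, and TATAAA for 14.3% and 14.3%, in the same order. These are matches of letters and not binding sites. The 250 bases are shown for Col3a1 and Col20a1, both of which passed 50 CPM in HFD replicate 2 alone, with any match of these 3 motifs in capitals (GRCm38.p6, RefSeq, plus strand, chr1:45311288-45311537 and chr2:180986285-180986534).

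Col3a1: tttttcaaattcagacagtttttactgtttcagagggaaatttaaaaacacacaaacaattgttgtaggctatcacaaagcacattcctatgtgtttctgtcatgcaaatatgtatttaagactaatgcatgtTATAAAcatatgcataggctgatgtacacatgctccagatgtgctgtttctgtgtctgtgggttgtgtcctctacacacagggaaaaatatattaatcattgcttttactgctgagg

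Col20a1: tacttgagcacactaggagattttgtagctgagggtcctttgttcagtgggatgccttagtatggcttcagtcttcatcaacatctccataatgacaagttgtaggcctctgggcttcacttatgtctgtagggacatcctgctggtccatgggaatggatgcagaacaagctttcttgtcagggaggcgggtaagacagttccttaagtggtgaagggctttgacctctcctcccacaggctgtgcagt

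Col3a1 holds a single match, of TATAAA, and Col20a1 holds none.

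Most collagens lay near background. Of the 44 genes, 17 and 12 exceeded it in ND replicates 1 and 2, and 8 and 9 in HFD replicates 1 and 2. As shares these are 38.6%, 27.3%, 18.2% and 20.5%, against 24.9%, 22.1%, 13.3% and 15.2% of all protein-coding genes. Only Col1a1 and Col4a1 exceeded it in all 4 libraries, and 21 genes exceeded it in none. The 34 genes that never reached 50 CPM had medians of 5.29, 4.80, 3.41 and 7.60 CPM, in the order of ND and then HFD replicates. Col10a1, a collagen of growth cartilage, had 0 counts in ND replicate 2, which allows up to 0.384 CPM. The median reads per kilobase of the 34 genes was 3.10 to 6.23 per library, while the median olfactory receptor gene had 1.34 to 2.70. Across these 34 genes, which are not replicates, counts correlated with exon length at a Pearson r of 0.274 to 0.445 and a Spearman rho of 0.304 to 0.554 per library.

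For the effect of diet, the quasi-likelihood test of edgeR was run on every gene left by a filter on low counts, which kept the 44 collagens. At an adjusted p under 0.05 and a fold change over 1.5, 0 of the 44 collagens and 0 of 19335 genes (0.0%) were called. The smallest adjusted p of a collagen from this test was 0.406. Before adjustment, 3 of the 44 genes had a p under 0.05, 2 of them higher and 1 lower in HFD, while 11.2% of all genes tested had such a p. The 3 genes were Col4a1, Col8a1 and Col5a2. Col4a1 was fitted at 7.13 on the log2 scale (standard error 2.25, adjusted p = 0.406 from edgeR), and leaving out any library gave 6.52 to 7.51. Col8a1, a network-forming collagen, had 15 and 18 counts in ND and 20 and 32 in HFD, all at background, and was fitted at 0.94 (standard error 0.37). Col5a2 was fitted at -2.41 (standard error 0.97), which became -0.89 without ND replicate 1, the library with 279 of its counts.

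The fitted log2 fold change was above 0 for 28 collagens and below 0 for 16. The median was 0.34 over the 44 collagens and 0.03 over all genes tested. Without TMM scaling the 2 medians were 0.59 and 0.21, as that scaling moved the median of all genes by 0.18. By class, 6 of 11 fibrillar, 5 of 6 basement membrane and 17 of 27 other genes were fitted higher in HFD. On CPM, both HFD values were above both ND values for 9 collagens, where this held for 13.9% of genes tested, and below them for 3, where this held for 13.4%. The 9 genes included Col4a1, Col4a3, Col4a4 and Col4a6 of the 6 collagen IV genes, the latter 3 at 3.58 to 10.7 CPM.

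**Figure D4:**
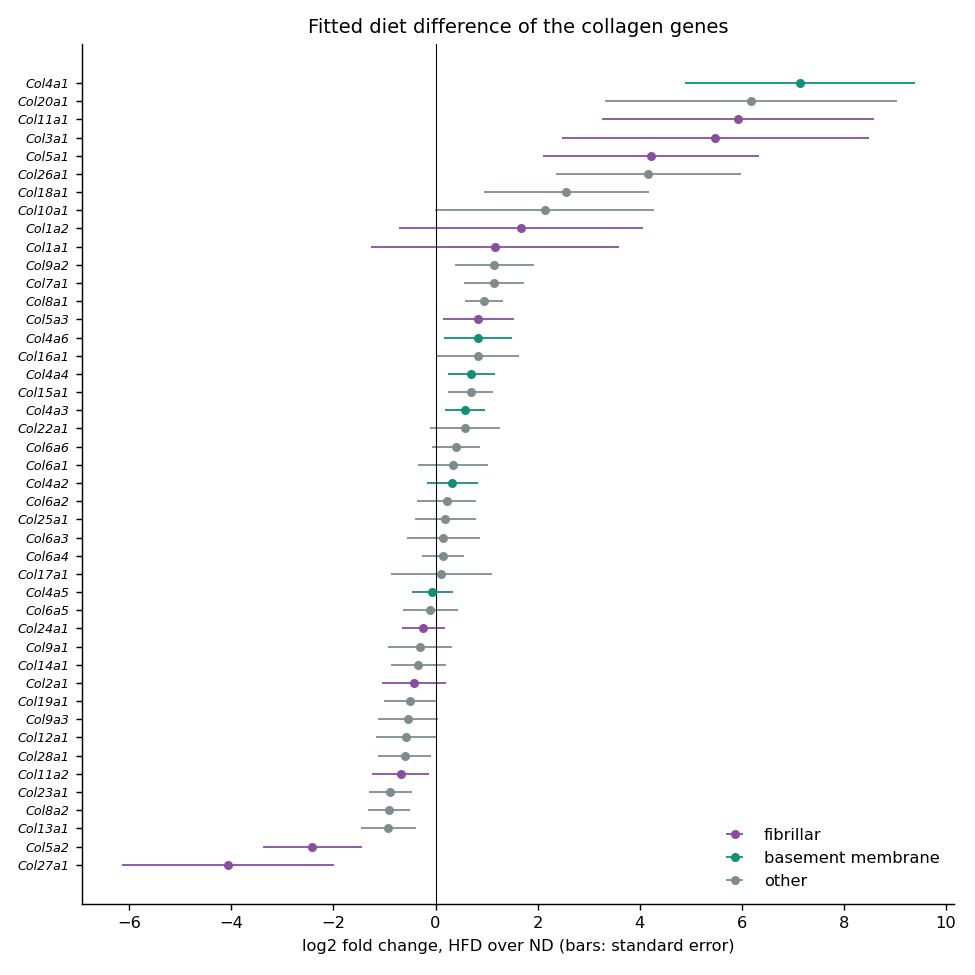
Fitted log2 fold change of HFD over ND for the 44 collagens, coloured by class, with bars of 1 standard error. Col4a1 is at the top at 7.13 and Col27a1 at the bottom at -4.07, and the longest bars, 3.01 for Col3a1 and 2.86 for Col20a1, belong to genes over 50 CPM in HFD replicate 2 alone.

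The Wald test of DESeq2 returned an adjusted p for 16 of the collagens and called 7 of them. It called 55.2% of the 4658 genes that received one. Higher in HFD by that test were Col4a1, Col20a1, Col11a1, Col3a1, Col5a1 and Col26a1, and lower was Col27a1. Only for Col4a1 and Col26a1 among these 7 did the CPM of the diets not overlap. The edgeR log2 fold change turned sign without HFD replicate 2 for Col20a1, from 6.18 to -0.74, and for Col3a1, from 5.48 to -2.11. Without HFD replicate 1 it turned from 5.92 to -1.03 for Col11a1 and from 4.23 to -0.80 for Col5a1, and fell from 4.17 to 0.27 for Col26a1. Leaving out ND replicate 1 moved Col27a1 from -4.07 to 0.15. Col1a1 moved from 1.16 to 6.82 without ND replicate 1 and to 0.11 without ND replicate 2, Col18a1 from 2.57 to -1.09 and Col1a2 from 1.68 to -3.35 without HFD replicate 1. By limma-voom and by edgeR's legacy fit, 0 collagens were called and 0 had an unadjusted p under 0.05.

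Genes that act with collagens were read from lists written by hand. The 16 partners of fibrillar matrix summed to 1525 and 77.2 CPM in ND and to 1354 and 6956 CPM in HFD. On library totals this is the same order of libraries as for the fibrillar collagens, although the intervals of the latter overlapped for ND replicate 1 and HFD replicate 1. With TMM-scaled totals, HFD replicate 1 was above ND replicate 1 in both sums. Sparc, a collagen-binding glycoprotein, was at 532 and 4.09 CPM in ND and 495 and 2003 CPM in HFD, high in the same 3 libraries as Col1a1. Bgn, a small proteoglycan on collagen fibrils, was at 3097 CPM in HFD replicate 2 and at most 6.45 CPM elsewhere. Postn, a matricellular protein of fibroblasts, was at 1272 CPM in that library and at most 2.92 CPM elsewhere. Fbn2, a microfibril protein, was at 808 CPM in HFD replicate 1 and at most 17.6 CPM elsewhere. The proteoglycans Lum and Dcn, chosen after their values were seen, were at 598 and 323 CPM in ND replicate 1 and at most 1.22 and 4.61 CPM elsewhere. Of the 14 partners tested by edgeR, 2 with a higher and 1 with a lower level in HFD had an unadjusted p under 0.05, again beside 11.2% of all genes tested, and 0 were called.

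Of the 11 basement membrane partners, 5 exceeded background in ND replicate 2 and 2 in each other library. Lamb1, a laminin chain, was at 1306 CPM in HFD replicate 2 and at most 10.7 CPM elsewhere, so that it was not raised in HFD replicate 1, where Col4a1 was at 1313 CPM. Lamc1, Lama1 and Nid1, the usual laminin and nidogen partners, chosen after their values were seen, stayed between 3.45 and 16.8 CPM. Lama4 and Nid2 were chosen in the same way. Lama4 exceeded background only in HFD replicate 1, at 22.5 CPM, and Nid2 only in the ND libraries, at 8.63 and 10.4 CPM. Agrn, a heparan sulphate proteoglycan, was at 80.0 CPM in HFD replicate 2, and Hspg2, or perlecan, at 53.7 CPM in HFD replicate 1. By the edgeR test 0 of these 11 genes had an unadjusted p under 0.05.

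The 30 genes of collagen processing summed to 1692 and 1703 CPM in ND and to 2117 and 357 CPM in HFD, and the lowest sum was in the library with most collagen. P4hb, the disulphide isomerase subunit of prolyl hydroxylase, was at 7.66 and 1561 CPM in ND and at 1079 and 22.0 CPM in HFD. Bmp1, which trims procollagen, was at 1072 CPM in ND replicate 1 and at most 12.4 CPM elsewhere. Pcolce, an enhancer of that step, was at 588 CPM in HFD replicate 1 and at most 4.61 CPM elsewhere. Serpinh1, the collagen chaperone HSP47, was at 429 and 3.58 CPM in ND and at 42.1 and 6.46 CPM in HFD. Of the 29 genes tested, edgeR gave an unadjusted p under 0.05 to 2 with a higher level in HFD, P3h3 and Plod3, and to 4 with a lower level, Crtap, Plod2, Ppib and Colgalt1, where 11.2% of all genes tested had such a p, and 0 were called. These 6 genes were chosen after their values were seen. Of 9 collagen receptors, Itgb1, the common integrin beta chain, alone reached 50 CPM, at 80.1 CPM in HFD replicate 1.

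Markers of the cell types in or around a fetal ovary were read beside the collagens, and their part in the collagen levels was not tested. The 12 ovarian stroma markers summed to 243 and 54.5 CPM in ND and to 725 and 2046 CPM in HFD, with ND replicate 2 the lowest. Only Nr2f2, a transcription factor of interstitial cells, and Dlk1, a surface protein of stromal progenitors, reached 50 CPM. Nr2f2 was at 167 and 10.1 CPM in ND and 623 and 639 CPM in HFD, and Dlk1 at 26.8 and 14.1 CPM in ND and 71.2 and 1261 CPM in HFD. Pdgfra, the receptor that often defines fibroblasts and was chosen here after its values were seen, was at 7.05 and 3.71 CPM in ND and 0.774 and 26.4 CPM in HFD. The 10 pericyte and smooth muscle markers summed to 27.1 to 49.6 CPM in ND and to 87.4 to 157 CPM in HFD. Tagln, an actin-binding protein of smooth muscle, was the only one over 50 CPM, and gave 129 of the 157 CPM in HFD replicate 1. Of the 10 markers, 4 and 0 exceeded background in ND replicates 1 and 2, and 1 and 3 in HFD replicates 1 and 2.

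The 11 endothelial markers summed to 36.5 to 84.5 CPM in ND, 721 CPM in HFD replicate 1 and 61.7 CPM in HFD replicate 2. The VEGF receptor Kdr gave 681 CPM of the sum in HFD replicate 1. Pecam1, the other marker to reach 50 CPM, was at 4.13 and 53.9 CPM in ND and at 9.91 and 6.46 CPM in HFD. Cdh5, a defining endothelial cadherin chosen after its values were seen, was at 1.28 to 9.96 CPM. Of the 11 markers, 1 and 2 exceeded background in ND replicates 1 and 2, and 3 and 2 in HFD replicates 1 and 2. The 14 pregranulosa markers summed to 46.3 and 421 CPM in ND and to 26.0 and 2096 CPM in HFD. In HFD replicate 2 they were led by Amhr2, the receptor of anti-Müllerian hormone, at 1113 CPM and by the WNT enhancer Rspo1 at 920 CPM, and in ND replicate 2 by the activin antagonist Fst at 383 CPM. Of the 14 markers, 3 and 4 exceeded background in ND replicates 1 and 2, and 0 and 3 in HFD replicates 1 and 2. Only 2 reached 50 CPM in HFD replicate 2, so that the sum there was mostly Amhr2 and Rspo1. Col4a1 was high in that library and also in HFD replicate 1, where the markers summed to 26.0 CPM. The 8 blood markers summed to 1976 CPM in ND replicate 1 and to 4.49 to 25.5 CPM elsewhere, with the globin Hbb-bs at 894 CPM in the former and at 0 counts in ND replicate 2. The 8 surface epithelium and 10 macrophage markers summed to at most 25.5 and 52.4 CPM in any library, with C1qa, chosen after its values were seen, at 0 counts in ND replicate 1.

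**Figure D5:**
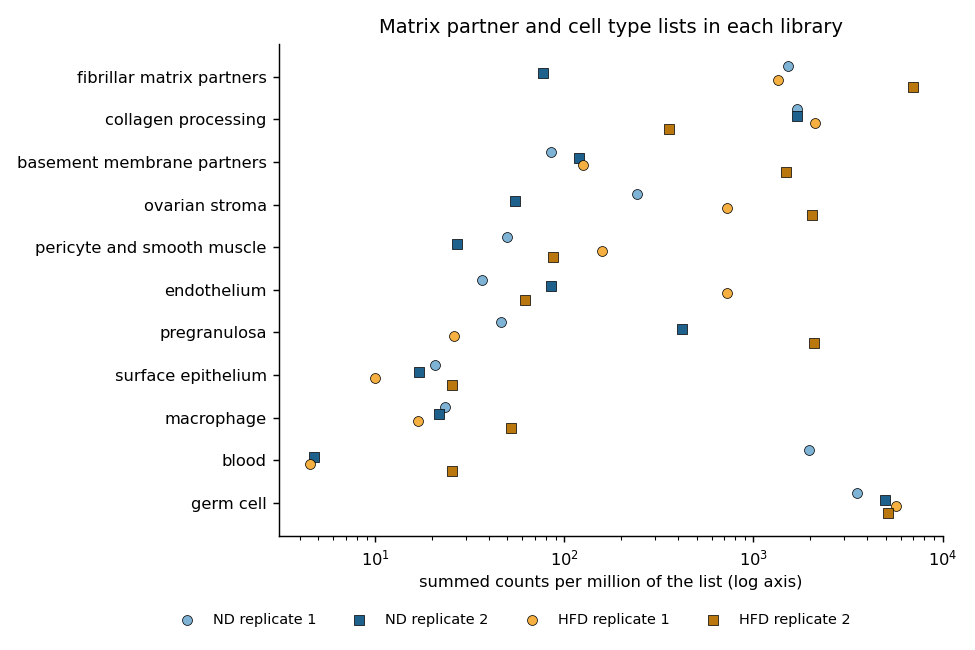
Summed CPM (log axis) of lists of matrix partner genes and cell type markers, 1 point per library. The fibrillar matrix partners and ovarian stroma are lowest in ND replicate 2 and highest in HFD replicate 2, whereas blood is highest in ND replicate 1 and endothelium in HFD replicate 1.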

How the data were processed

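Raw counts per gene were deposited by the authors, 1 library per file, and were used as deposited. Per the methods of the study, reads were checked with FastQC, trimmed with Trim Galore, aligned to mm10 with HISAT2 and counted with featureCounts. The annotation release, the strand setting and the treatment of reads with several alignments are not given in the sources used here. Identifiers were matched to GENCODE M21 without version, and 260 of 55401 were not listed there.

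CPM was the count over the library total. The diets were compared with edgeR 4.0.16 in R 4.3.3 (TMM, filterByExpr, quasi-likelihood fit and test with legacy FALSE, Benjamini-Hochberg over 19335 genes). The TMM factors were 1.02, 0.940, 0.692 and 1.51 for ND and then HFD replicates. Standard errors were derived from each gene's log2 fold change and its F statistic, as the absolute value divided by the root of F. DESeq2 1.42.0, limma-voom (limma 3.58.1), other normalizations and filters, the legacy fit, a replicate block and leaving out each library were alternatives. The edgeR, DESeq2 and limma functions were tested on data simulated with a single dispersion. This checks the code and not how the tests perform at the spread of these libraries. Members, classes, gene lists, the 50 CPM limit and the background measure were chosen with earlier results of these data known. Named were collagens with at least 50 CPM in a library or with separated groups and an unadjusted p under 0.05, chains of the same trimer, and up to 4 genes of highest mean CPM per list. Genes of the lists named outside this rule are marked in the text, and collagens under 50 CPM that are named as examples were chosen after their values were seen.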

Additional observations from a re-analysis of the deposited data

How the results depend on the processing

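The count of collagens called by edgeR at an adjusted p under 0.05 was 0 under all edgeR settings tried and limma-voom, and 7 with DESeq2 on all genes. The count over all genes moved from 0 to 34 with edgeR's legacy fit and to 2569 with DESeq2. The number of collagens with an unadjusted p under 0.05 moved from 3 to 1 with library totals only, to 0 with the legacy fit, with limma-voom and with the replicate block, and to 7 with DESeq2. With each library left out it was 3 to 6. Deviations of equally numbered libraries from their group means correlated at 0.01 over 19335 genes. With 2 libraries a diet, that value cannot show whether equal numbers share a batch, and the labels do not say. The replicate block left the calls at 0, where they already were without it.

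The log2 ratio of the HFD to the ND mean of summed CPM was 1.75 for fibrillar collagens and 0.81 to 5.36 with each library left out, the highest without ND replicate 1. It was 5.39 for collagen IV and 4.80 when Col7a1, Col15a1 and Col18a1 were counted with it. The sign held for each class under TMM-scaled totals and sums per kilobase.

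With a library left out, the fitted log2 fold change ran from -1.03 to 6.93 for Col11a1, -1.09 to 3.51 for Col18a1, -3.35 to 4.41 for Col1a2, -0.74 to 7.05 for Col20a1, -5.09 to 0.15 for Col27a1, -2.11 to 6.36 for Col3a1 and -0.80 to 5.21 for Col5a1. Each turned sign without the library that held most of its counts. With the 95th percentile as background limit, 16 to 23 collagens exceeded it per library, and 8 to 15 had at least 10 CPM. With 2 libraries a diet, the standard error was 1.62 to 3.01 on the log2 scale for the 10 collagens with at least 50 CPM in a library. Reads without molecular identifiers are not independent molecules.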

Other observations

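Col4a3bp, whose symbol fits the pattern but which encodes a ceramide transfer protein, had 24 and 38 counts in ND and 1237 and 30 in HFD replicates 1 and 2. It was at 2.92 and 4.86 CPM in ND, 192 CPM in HFD replicate 1 and 5.24 CPM in HFD replicate 2, and its values of the diets did not overlap. It was fitted by edgeR at 5.11 on the log2 scale, with a standard error of 2.21 and an adjusted p of 0.406.

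Some collagens share exon bases with another gene. BX649560.1, which shares 79 with Col20a1, had 2 counts in HFD replicate 2, where Col20a1 had 9701. On the opposite strand, 2810430I11Rik, which shares 99 with Col5a1, had 20 counts in HFD replicate 1, its highest value, where Col5a1 had 1654. Col9a3 shares 234 exon bases with Tcfl5 on the opposite strand, which had 3146 counts in ND replicate 2, where Col9a3 had 79. The libraries were made from amplified cDNA that was sonicated, and no strand setting is stated, so that reads of genes on opposite strands cannot be told apart.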
